A study of Arabidopsis thaliana with 8 samples.

Results

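PRODH2 (AT5G38710) encodes a mitochondrial proline dehydrogenase, and DELTA-OAT (AT5G46180) encodes ornithine delta-aminotransferase, also of mitochondria. The 2 genes were chosen by name, as the only 2 of 13 listed genes of proline synthesis, breakdown and transport that a probe set names here. Earlier results of these data were known by then. The study lists proline dehydrogenase 2 among genes induced in its overexpressing line, with no entry for wild-type, at a log fold change over 2. The PRODH2 change in wild-type given below is smaller than that limit. Counts of these 2 genes called are therefore no independent support. They are 2 of 13356 genes that a probe set names alone, among 22746 probe sets tested. Each gene, both of them on chromosome 5, was read by 1 probe set, a group of short oligonucleotides on the ATH1 array, so no choice among probe sets had to be made.

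Whole seedlings of Arabidopsis thaliana, 14 days old and grown in liquid MS medium, were compared in 4 groups of 2 arrays. Wild-type (WT, the Col-0 accession) was kept without added salt (WT control) or exposed to 150 mM NaCl for 24 h (WT NaCl), a dose taken from the labels, since a legend of the study gives a lower one. A line overexpressing the rice serine hydroxymethyltransferase gene OsSHMT3 (OE) was handled in the same way (OE control and OE NaCl). The transgene was driven by the ENTCUP2 promoter in the pORE-E2 vector, and the methods name more than 1 transgenic line for the arrays, so the OE arrays stand for a line whose identity is not settled. The array was designed on Arabidopsis genes, so the rice transgene itself was not checked here.

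Proline is an osmolyte that plants accumulate under salt and water deficit. It is made from glutamate by pyrroline-5-carboxylate synthetase and reductase, and it is broken down again in mitochondria, where proline dehydrogenase feeds electrons to the respiratory chain and pyrroline-5-carboxylate dehydrogenase returns the carbon to glutamate. Ornithine delta-aminotransferase forms the same intermediate from ornithine, which links arginine breakdown to this pathway. PRODH1, the better studied proline dehydrogenase gene, is known to be repressed during water stress and induced by proline, and it is not analysed here.

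The spread between replicates was unequal over the series. The green leaf genes RCA, LHCB4.2 and LHCB4.3 (3 measured of 8 listed) had mean log2 signals between 7.76 and 12.94 in the 4 groups. The root hair genes EXPA7 and EXPA18 lay between 4.05 and 5.37. AT3G54580, the other measured root marker, lay between 4.36 and 6.71. The replicate arrays differed with an SD over probe sets of 0.12 to 0.21 in WT and 0.43 to 0.55 in OE. Array medians were 6.27 to 6.33 in WT and 6.00 to 6.32 in OE, the highest OE value being that of OE NaCl replicate 2. Of 4 measured genes of abscisic acid and osmotic stress among 12 listed, 4 rose after NaCl in WT and 4 in OE, where 3.26% and 4.88% of all probe sets rose. The methods state biological replicates for the experiments in general and more RNA extractions per group than the 2 arrays analysed here, but no label says which cultures these arrays come from. The p-values set each difference against the spread between replicate arrays, which the model takes as shared by the 4 groups. That spread could be in part technical, and precision is limited by the number of arrays.

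PRODH2 was lowest in OE control and highest under NaCl. Its log2 signal was 7.22 and 7.11 in the 2 arrays of WT control and 8.24 and 8.33 in those of WT NaCl. In OE it was 5.64 and 5.98 in control and 8.12 and 8.83 in NaCl. The NaCl arrays of a genotype were higher than its control arrays without overlap, and both OE control arrays lay below all 6 other arrays. The OE NaCl arrays stood on either side of the WT NaCl arrays.

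DELTA-OAT was also lowest in OE control, but it was highest in WT NaCl. Its log2 signal was 9.0 and 8.83 in WT control and 9.63 and 9.55 in WT NaCl. It was 7.43 and 7.56 in OE control and 8.80 and 8.89 in OE NaCl. Both WT NaCl arrays were above all others, and the OE NaCl arrays overlapped with those of WT control. In OE NaCl the replicate arrays were 0.09 apart for DELTA-OAT, a gap smaller than that of most probe sets, since 17.5% had a smaller one. For PRODH2 they were 0.71 apart, and 82.5% of probe sets had a smaller gap.

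**Figure D1:**
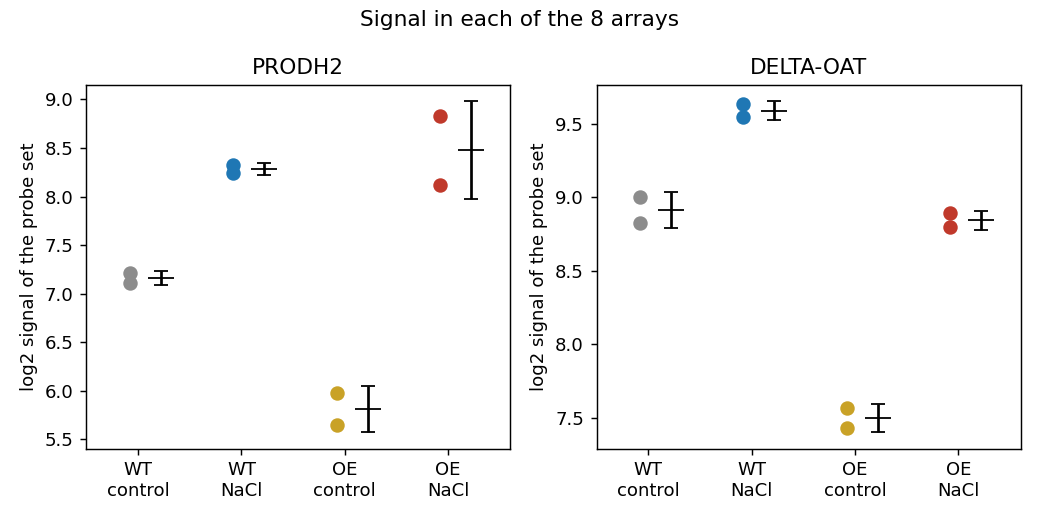
Log2 signal of PRODH2 (left) and DELTA-OAT (right) in WT and OE seedlings, control and NaCl, with 1 point per array and the mean ± SD (n = 2) beside it as a bar. The vertical axes differ between panels and do not start at 0. OE control is lowest for both genes, at 5.64 and 5.98 for PRODH2 and 7.43 and 7.56 for DELTA-OAT.

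To determine whether salt altered these genes in wild-type, WT NaCl was compared with WT control. PRODH2 rose from 7.16 ± 0.08 (log2 signal, SD, n = 2) to 8.29 ± 0.06, a 2.18-fold increase, with a 95% interval of the log2 fold change from 0.55 to 1.69 (limma, adjusted p = 0.0429). DELTA-OAT rose from 8.91 ± 0.12 to 9.59 ± 0.06, a 1.60-fold increase, with an interval from 0.36 to 1.0 (adjusted p = 0.0337). Thus 2 of 2 genes were called higher, where 3.26% of all probe sets were. Ordered from the largest increase down, PRODH2 ranked 439 of 22746 probe sets and DELTA-OAT ranked 1035. Among the green leaf genes, LHCB4.2 fell by 0.55 on the log2 scale (adjusted p = 0.0426), 1 of 3 measured against 2.56% of all probe sets called lower, and the summed linear signal of the list was 12246 to 12340 in WT NaCl against 14922 to 15107 in WT control. Its part in the result was not tested. Both calls were close to the threshold. Fitted to the 4 WT arrays alone, whose replicates differed less than those of OE, the adjusted p was 0.0002 for PRODH2 and 0.00269 for DELTA-OAT. With all arrays but no moderation of the variances the adjusted p of PRODH2 was 0.155. Without 1 array of WT the adjusted p was 0.214 (WT control replicate 1), 0.26 (WT control replicate 2), 0.256 (WT NaCl replicate 1) or 0.301 (WT NaCl replicate 2) for PRODH2, and 0.0576 without either OE control array, while for DELTA-OAT it was 0.128, 0.23, 0.351 and 0.258 without the same 4 WT arrays in turn.

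The same comparison in the overexpresser gave larger values. PRODH2 went from 5.81 ± 0.24 in OE control to 8.48 ± 0.50 in OE NaCl, a 6.35-fold increase, with a 95% interval of the log2 fold change from 2.1 to 3.24 (adjusted p = 0.00141). It ranked 50 among the 22746 probe sets by log2 fold change. DELTA-OAT went from 7.50 ± 0.09 to 8.84 ± 0.07, a 2.55-fold increase, with an interval from 1.03 to 1.67 (adjusted p = 0.002), and ranked 427. Again 2 of 2 were called higher, against 4.88% of all probe sets, and 1.67% were called higher in both genotypes. The lowest NaCl array exceeded the highest control array by 2.14 on the log2 scale for PRODH2 and by 1.23 for DELTA-OAT. Both calls held with each of the 8 arrays left out in turn (adjusted p up to 0.0153 and 0.016). Fitted to the 4 OE arrays alone, DELTA-OAT had an adjusted p of 0.0743 and PRODH2 of 0.0404. The only measured gene of 10 listed for seed storage and oil bodies, the oleosin gene OLEO3, was higher in the same OE NaCl arrays, with a linear signal from 1314 to 1484 against 482 to 507 in OE control, and the only measured gene of 7 listed for senescing leaves, the sugar transporter gene SAG29, had 357 to 466 against 153 to 162. Of the green leaf genes, LHCB4.3 fell by 0.83 on the log2 scale (adjusted p = 0.0114), 1 of 3 measured against 2.33% of all probe sets called lower, with a summed linear signal of the list of 12188 to 13083 against 13844 to 13995. The root markers had a summed linear signal of 69.2 to 148 in OE NaCl against 150 to 215 in OE control. Of these, 0 of 3 measured were called lower, against the same 2.33%. The part of these markers in the PRODH2 and DELTA-OAT result was not tested. In whole seedlings, fewer cells of a type and less RNA per cell cannot be told apart.

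**Figure D2:**
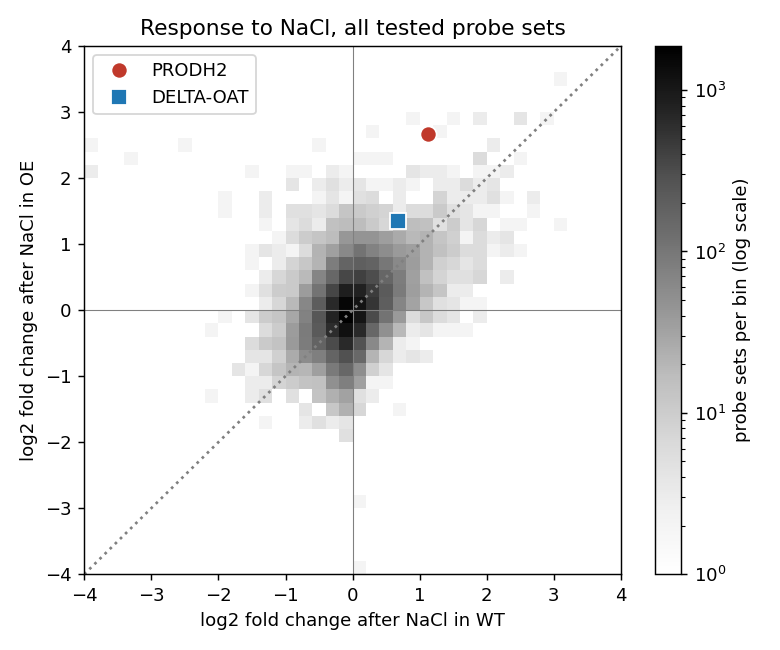
Log2 fold change after NaCl in WT (horizontal) against that in OE (vertical), with the number of probe sets per bin of 0.2 in grey on a log scale and values beyond the axes placed in the outermost bins. PRODH2 lies at 1.12 and 2.67 and DELTA-OAT at 0.68 and 1.35, both above the dotted line of equal change.

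To see how the line stood before salt, OE control was compared with WT control. Both genes were lower in OE, PRODH2 by a factor of 2.55 (log2 fold change -1.35, 95% interval -1.92 to -0.78, adjusted p = 0.0139) and DELTA-OAT by a factor of 2.67 (log2 fold change -1.42, interval -1.74 to -1.10, adjusted p = 0.00217). The decrease was of nearly the same size for both genes, and the groups did not overlap for either. Here 2 of 2 were called lower, against 12% of all probe sets, a larger background than in any other of these comparisons. The OE control arrays also had lower medians than the WT control arrays. After each array was centred on its median, the genes had log2 fold changes of -1.10 and -1.16 and were still called lower (adjusted p = 0.0127 and 0.00371). Over all probe sets, centring moved the median log2 fold change of this comparison from -0.02 to 0.24, and the share of calls that were higher from 40.2% to 69.0%. The root markers moved as well. Of 7 listed, 3 were measured, and 2 were higher in OE control, where 8.1% of all probe sets were. These were EXPA7, higher by 0.83, and the extensin family gene AT3G54580, higher by 2.35 on the log2 scale (adjusted p = 0.0267 and 0.0427). The summed linear signal of the list was 150 to 215 against 63.3 to 66.2 in WT control. Their part in the result was not tested. The PRODH2 call ended without WT control replicate 1 (adjusted p = 0.115), WT control replicate 2 (0.0804) or OE control replicate 1 (0.0641), and with all arrays but no moderation of the variances (0.0717).

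Under NaCl the genes differed in how OE stood to WT. For PRODH2 the difference OE NaCl minus WT NaCl was 0.19 on the log2 scale, with a 95% interval from -0.38 to 0.76 (adjusted p = 0.646), so neither an increase nor a decrease was resolved. Without OE NaCl replicate 2 the difference was -0.16. DELTA-OAT was 1.68 times lower in OE NaCl than in WT NaCl (log2 fold change -0.75, interval -1.07 to -0.43, adjusted p = 0.0176). It was thus 1 of the 2 genes that was called lower, where 4.92% of all probe sets were. That call ended without WT NaCl replicate 1 (adjusted p = 0.2) or replicate 2 (0.15) and in a fit of the 4 NaCl arrays alone (0.0607).

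The interaction, that is the change after NaCl in OE less the change in WT, was positive for both genes. It was 1.54 for PRODH2 (SE 0.34, 95% interval 0.74 to 2.35, adjusted p = 0.101) and 0.67 for DELTA-OAT (SE 0.19, interval 0.22 to 1.12, adjusted p = 0.198). By limma 0 of 2 were called, where 1.23% of all probe sets were called with a positive interaction, and both had an unadjusted p under 0.05 (0.00269 and 0.00976). With array weights the PRODH2 interaction was called (limma, adjusted p = 0.0376). In the other settings that kept all arrays it was not called, with an adjusted p up to 0.264 (no moderation of the variances). With 1 array left out it ran from 1.19 (without OE NaCl replicate 2) to 1.90. The highest value was without OE NaCl replicate 1, the array with the lower PRODH2 signal of its group. The interaction equals the OE minus WT difference under NaCl less that in control, and these comparisons share their arrays with those above. For PRODH2 the part from control was -1.35 and the part from NaCl 0.19, and for DELTA-OAT they were -1.42 and -0.75, so under NaCl the difference added to the PRODH2 interaction and took away from that of DELTA-OAT.

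**Figure D3:**
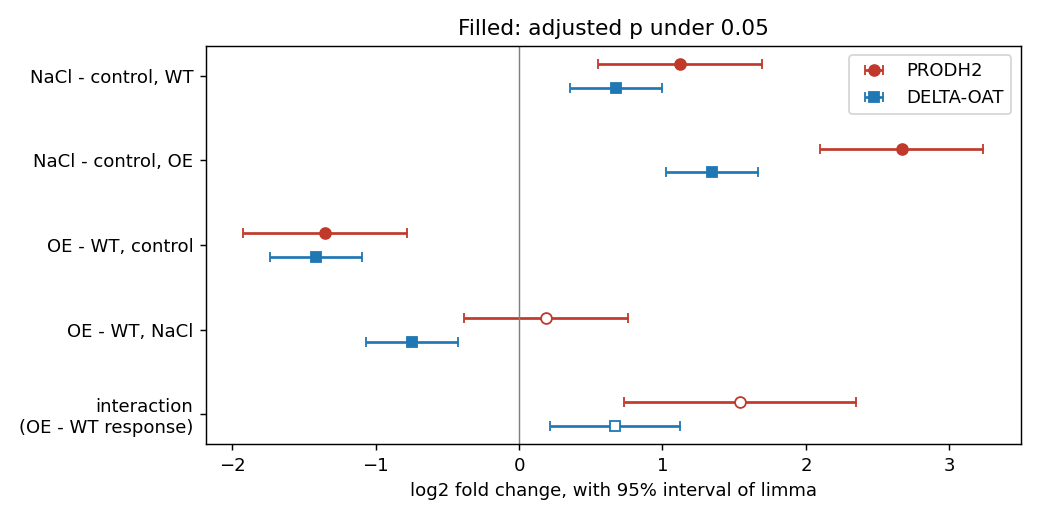
Log2 fold changes of PRODH2 (circles) and DELTA-OAT (squares) in the 5 comparisons, with 95% intervals from limma as horizontal bars and filled symbols for an adjusted p under 0.05. Intervals of both genes lie above 0 after NaCl and below 0 for OE against WT in control, whereas under NaCl PRODH2 is at 0.19 and DELTA-OAT at -0.75.

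The order of the 4 groups summarizes these levels. For PRODH2 it ran from OE control (5.81) through WT control (7.16) and WT NaCl (8.29) to OE NaCl (8.48), and the upper pair did not differ beyond its spread. For DELTA-OAT it ran from OE control (7.50) through OE NaCl (8.84) and WT control (8.91) to WT NaCl (9.59), and here the middle pair did not differ beyond its spread. OE NaCl minus WT control was -0.07 for DELTA-OAT (95% interval -0.39 to 0.25, adjusted p = 0.782), whereas it was 1.31 for PRODH2 (interval 0.74 to 1.89, adjusted p = 0.0145). In mean signal the salted overexpresser was therefore closest to salted wild-type in PRODH2 and to unsalted wild-type in DELTA-OAT. Neither difference was resolved, and the PRODH2 interval of -0.38 to 0.76 does not establish that the levels were equal.

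The log2 difference PRODH2 minus DELTA-OAT within an array does not move with the scaling of that array. Its absolute size depends on the probes, so only its change between groups was read. It was -1.78 and -1.72 in WT control, -1.39 and -1.22 in WT NaCl, -1.79 and -1.59 in OE control, and -0.68 and -0.06 in OE NaCl. All 4 NaCl arrays lay above all 4 control arrays, and the control arrays of the genotypes overlapped. After NaCl the mean difference increased by 0.45 in WT and by 1.32 in OE. The mean change in signal was thus larger for the PRODH2 probe set than for that of DELTA-OAT in both. With 1 probe set per gene, whether the probe sets respond alike to a change in RNA could not be checked. These values are a description with no test.

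**Figure D4:**
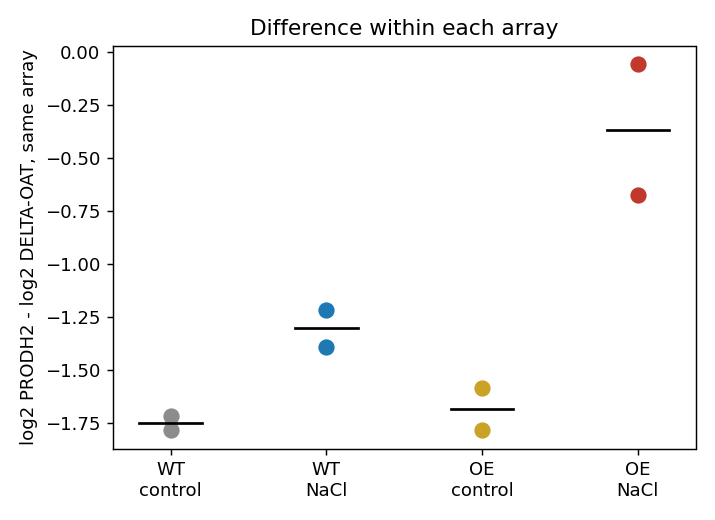
Log2 signal of PRODH2 minus that of DELTA-OAT in the same array, with 1 point per array and a line at the group mean (n = 2). Control arrays of both genotypes lie between -1.79 and -1.59, WT NaCl at -1.39 and -1.22, and OE NaCl at -0.68 and -0.06.

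Genes around the pathway were sparsely measured. Of 15 listed genes of arginine, ornithine and polyamines, 4 were measured, and 0 were called after NaCl in WT and 0 in OE by limma (1 and 1 at an unadjusted p under 0.05). Over all probe sets 5.82% and 7.22% were called in either direction, so nothing about the list is read from these counts. These are OTC, ASL and ASSY, which carry ornithine to arginine, and URE, the urease that completes arginine breakdown. ASL, argininosuccinate lyase, had the largest change in WT, a log2 fold change of 0.64 (adjusted p = 0.0506), with 0.07 in OE (adjusted p = 0.817). OTC, ornithine carbamoyltransferase, which uses the same substrate as DELTA-OAT, had 0.11 in WT and -0.13 in OE (adjusted p = 0.898 and 0.684). URE was lower in OE control than in WT control, with a log2 fold change of -1.35 (adjusted p = 0.0143).

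The bZIP factors of groups C and S1 include known activators of PRODH1. Of 9 listed, 2 were measured. BZIP53 had a log2 fold change of -0.36 in WT and -0.23 in OE (adjusted p = 0.307 and 0.416). BZIP44 fell in OE, from 8.56 to 7.16 on average, a log2 fold change of -1.41 (adjusted p = 0.00471), and had -0.66 in WT (adjusted p = 0.0849). It was also lower in OE than in WT, by 0.67 in control and 1.42 under NaCl on the log2 scale (adjusted p = 0.0387 and 0.00314). Thus 1 of 2 measured was called lower after NaCl in OE, where 2.33% of all probe sets were. Any part of these factors in the PRODH2 result was not tested.

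Among 2890 probe sets that name 1 gene and whose group means span at least 1 log2 unit, those most like PRODH2 over the 8 arrays were found by Pearson r. The highest was AT3G21670, the nitrate transporter gene NPF6.4 (r = 0.996), followed by BGLU25 of the beta-glucosidases (0.992), AT1G69360 (0.988), AT5G52050 (0.987), which is the efflux carrier gene DTX50, and AT3G02480 (0.987), of a late embryogenesis abundant family. NPF6.4 had mean log2 signals of 8.24 and 9.45 in WT control and NaCl and of 7.17 and 9.58 in OE control and NaCl, the same order of groups as PRODH2. Those most like DELTA-OAT were AT3G47940 (r = 0.990), the tRNase gene TRZ3 (0.988), AT4G15770 (0.988), AT4G29070 (0.986) and AT2G21180 (0.986). AT4G15770 had mean log2 signals of 9.49 and 10.26 in WT control and NaCl and of 8.09 and 9.49 in OE control and NaCl, so its OE NaCl and WT control levels were alike too. PRODH2 and DELTA-OAT had an r of 0.860 with each other (Spearman rho 0.738). By that measure DELTA-OAT was number 209 in likeness to PRODH2, and PRODH2 was number 405 in likeness to DELTA-OAT. These correlations describe 8 arrays that share the scaling of each array, and carry no p.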

How the data were processed

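RNA of whole seedlings was hybridized to 8 ATH1 arrays, and the authors deposited 1 value on a log2 scale per array and probe set. Per the labels these were made with Affymetrix Expression Console, and its version and the summarization method are not given in the sources used here. The methods also name R for the analysis of the scans. No further normalization was applied. Of 22810 probe sets, 64 control probe sets were left out, and 13513 of the remaining 22746 name 1 gene, 503 name several and 8730 carry no name here. Genes were named through the platform's annotation and the TAIR10.1 gene table, which give AT5G38710 no other symbol. The name PRODH2 follows the study. The files name no build, so no positions are given.

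Groups were taken from the sample titles. Linear models were fitted in R 4.3.3 with limma 3.58.1, using a mean per group, a spread shared by the 4 groups and Benjamini-Hochberg adjustment over all tested probe sets. "Rose", "fell", "called", "higher" and "lower" refer to an adjusted p under 0.05. The procedure was tested on simulated data that had the same spread in all 4 groups. The spread of the real arrays was unequal, so that test cannot show how the inequality affects the calls. The members, lists and rules were chosen with earlier results of these data known. Of each list, at most 4 genes were named, those with the smallest adjusted p after NaCl, and all of the proline list. An exception was ALDH6B2, named besides because it was called for OE minus WT in control. Genes of similar pattern were the 5 with the highest r. The comparisons OE NaCl with WT control and the list of breakdown of other amino acids were added after the members' values were seen. Alternatives were other sample sets, moderation, scaling, filters, array weights, a replicate block, the methods' limit and each array left out.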

Additional observations from a re-analysis of the deposited data

Results flagged for a closer look

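The 39 genes examined are PRODH2, DELTA-OAT, the measured listed genes and the genes of similar pattern. Of these, 3 had a response to NaCl that differed between the genotypes by limma's test of the interaction. Each had a positive value, called for 1.23% of all probe sets. The genes of similar pattern were picked by these same values, and the lists with earlier results known. The count is therefore no independent support, and nothing is read from it. OLEO3, an oleosin gene, had an interaction of 2.23 (adjusted p = 0.00176), with log2 fold changes of -0.74 in WT and 1.5 in OE. SAG29, a sugar transporter gene, had an interaction of 1.41 (adjusted p = 0.049), with -0.03 in WT and 1.37 in OE. AT3G02480, which was chosen for its likeness to the PRODH2 pattern, had an interaction of 2.39 (adjusted p = 0.0185), with 2.11 in WT and 4.49 in OE.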

How the results depend on the processing

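Each of 10 values, PRODH2 and DELTA-OAT in 5 comparisons, kept its direction under quantile normalization and median centring. The other settings used the same group means, so they could not turn a direction. Among fits with an array left out, 79 of 80 kept the direction, but arrays outside a comparison could not move its value. The exception was OE minus WT in NaCl for PRODH2, not called in any fit, which was -0.16 without OE NaCl replicate 2 and ran from -0.16 to 0.55. With arrays left out, log2 fold changes after NaCl in WT ran from 1.07 to 1.18 for PRODH2 and from 0.59 to 0.76 for DELTA-OAT, OE minus WT in control for PRODH2 from -1.52 to -1.19, OE minus WT in NaCl for DELTA-OAT from -0.79 to -0.70, and the PRODH2 interaction from 1.19 to 1.90. Calls were lost, at the same log2 fold changes, for DELTA-OAT in a fit of the 4 arrays compared (1.35 after NaCl in OE and -0.75 for OE minus WT in NaCl, adjusted p = 0.0743 and 0.0607) and for PRODH2 without moderation (1.12 after NaCl in WT and -1.35 for OE minus WT in control, adjusted p = 0.155 and 0.0717). The PRODH2 interaction of 1.54 was gained with array weights. By the limit in the methods (unadjusted P under 0.05, log2 change over 2), only PRODH2 after NaCl in OE passed. PRODH2 in WT (1.12) and in control (-1.35), and DELTA-OAT in WT (0.68), in OE (1.35), in control (-1.42) and in NaCl (-0.75), did not. With the replicate number as a block, DELTA-OAT after NaCl in WT, at 0.68, had an adjusted p of 0.07, no other call changed, and probe sets called after NaCl in WT numbered 945 against 1324. Deviations of same-numbered arrays correlated at -0.20 to 0.18. No label says whether these arrays shared a culture or batch, and such correlations cannot decide it. Numbers of called probe sets ran from 258 (without WT NaCl replicate 2) to 5899 (4 arrays compared) against 1324 after NaCl in WT, from 180 (4 arrays compared) to 6018 (without OE NaCl replicate 1) against 1642 in OE, from 420 (without WT control replicate 1) to 8696 (without OE NaCl replicate 1) against 4580 for OE minus WT in control, from 563 (without WT NaCl replicate 1) to 7057 (without OE NaCl replicate 2) against 2057 in NaCl, and from 122 (without WT NaCl replicate 2) to 2294 (without OE NaCl replicate 1) against 375 for the interaction. The share of higher calls in OE after NaCl was 67.7%, or 49.8% after median centring and 56.0% after quantile normalization. Of the 5 genes most like each member, 4 remained after median centring for either, and by Spearman rank correlation 3 for PRODH2 and 1 for DELTA-OAT, with ties. With 1 probe set per gene, no mean over probe sets could be tried. The causes were not tested.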

Other observations

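Proline dehydrogenase is 1 of several mitochondrial enzymes that pass electrons from amino acids to the respiratory chain. The list below is of amino acid breakdown in general and is not limited to such enzymes. Of 17 listed genes of the breakdown of other amino acids, 9 were measured, a list chosen after the values of PRODH2 and DELTA-OAT were seen. After NaCl, 3 rose and 0 fell in WT, and 2 rose and 1 fell in OE, with median log2 fold changes of 0.04 and 0.19. Over all probe sets, 3.26% rose and 2.56% fell in WT, 4.88% rose and 2.33% fell in OE, and the medians were -0.05 and 0.01. LKR, the enzyme that begins lysine breakdown, rose by 1.25 in WT and 1.20 in OE (adjusted p = 0.0016 and 0.00186 from limma). ALDH7B4, an aldehyde dehydrogenase, rose by 0.93 and 0.91 (adjusted p = 0.0103 and 0.0102). MGL, methionine gamma-lyase, rose by 0.75 in WT (adjusted p = 0.0373) and had 0.51 in OE (adjusted p = 0.103). ETFQO, which passes electrons to ubiquinone, fell in OE by 0.76 on the log2 scale (adjusted p = 0.0268) and had -0.47 in WT (adjusted p = 0.137). For OE minus WT in control, 3 of the 9 were higher and 1 was lower, against 8.1% and 12% of all probe sets. Those higher were MGL (log2 fold change 0.92, adjusted p = 0.012), ETFQO (0.67, adjusted p = 0.0255) and ALDH6B2, a methylmalonate semialdehyde dehydrogenase (0.52, adjusted p = 0.0487). ALDH7B4 was lower (-0.49, adjusted p = 0.0444), and LKR had -0.36 (adjusted p = 0.071).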
